A study of Homo sapiens with 6 samples.

Results

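Ferroptosis genes were examined in hepatocellular carcinoma cells treated with sorafenib. The 10 listed genes were SLC7A11, GPX4, ACSL4, LPCAT3, AIFM2, NCOA4, SAT1, GLS2, VDAC2 and VDAC3, and a probe belonged to the list when the platform annotation gave it one of these symbols. Of 20046 genes named on the beadchip, 9 were list members, with 13 probes between them, and GLS2 had no probe under its name and was not analysed here. Cells labelled Huh7, a line of hepatocyte-like cells from a liver carcinoma, had received either sorafenib, at a concentration labelled as 3 mM, or DMSO alone for 24 h, with 3 arrays in each group. Sorafenib is a multikinase inhibitor used against advanced liver cancer and is reported to inhibit cystine uptake, which is why these genes were looked at. The labels name no transgene or engineered allele in either group and give the concentration for the drug only. Nothing in them tells whether the 3 replicates of a group were grown apart, so the p-values cover the spread among these samples alone, and that spread could be technical.

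Ferroptosis is an iron-dependent form of cell death in which polyunsaturated phospholipids of membranes are peroxidised. The cystine importer system xc- feeds glutathione synthesis, and GPX4 spends glutathione to reduce lipid peroxides, while enzymes such as ACSL4 and LPCAT3 build the phospholipids that are oxidised. Labile iron, polyamine breakdown and mitochondrial channels have also been tied to the process, and liver cells are rich in iron, lipid and glutathione metabolism.

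The values came as a set of unnormalised probe signals, called the signal arrays here, and as a table of normalised values under the same 6 sample names, called the value-table arrays. A sample's own columns in the sets correlated at a Spearman rho of 0.848 to 0.863 across probes, against 0.846 to 0.863 for different samples, and were each other's best match for 3 of 6 samples. The sets therefore did not hold the same arrays, and which of them came from Huh7 was not settled, since the design text also names the lines SNU761, Hep3B and HepG2. They were tested separately. The number of arrays limits the precision: 3 per group and set. On the signal arrays, 16476 to 17476 probes were detected and the median signal was 120.2 to 144.5, lowest on sorafenib replicate 3. All 8 hepatocyte markers on named probes, among them ALB, AFP and APOA1, were kept in both sets, whereas the defining leukocyte markers PTPRC and CD3E were not. Of 5 leukocyte markers, 3 were kept (CD14, CD68 and LYZ). The mean log2 level over every probe of the 5 listed genes, detected or not, was 7.16 to 7.36 with DMSO and 7.08 to 7.18 with sorafenib on the signal arrays, and 8.36 to 8.39 and 8.21 to 8.28 on the value-table arrays. LYZ alone of these passed the test, falling by 0.82 and by 0.99 on the log2 scale. Of 5 fibroblast and stellate markers, 1 was kept in each set, PDGFRB on the signal arrays and LUM on the value-table arrays. Of 4 endothelial markers, 0 were kept on the signal arrays and PECAM1 alone on the value-table arrays. LUM (log2 change 0.21) and PECAM1 (-0.34) did not pass, though PECAM1 passed as lower when same-numbered samples were paired. PDGFRB, a pericyte and stellate cell receptor, was not well above background on any sorafenib array of the signal set and was at least 1.22-fold lower there. Its probe was kept only through the DMSO arrays, so it had to differ. LYZ and PDGFRB are singled out after their values were seen. The part of these markers in the results was not tested.

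A normalised level is a log2 value, so a difference of 1 is a doubling, and a gene passed when limma's adjusted p over all kept probes was under 0.05. On the signal arrays, 5 of the 8 members with a detected probe passed, 2 higher (GPX4 and LPCAT3) and 3 lower (SLC7A11, ACSL4 and SAT1), where 31.0% of all genes tested passed, 16.8% higher and 14.2% lower. On the value-table arrays, 3 of 8 passed, 2 higher (SLC7A11 and GPX4) and 1 lower (AIFM2), against 19.5% of all genes, 11.3% higher and 8.17% lower. The 3 samples of each group did not overlap for 6 members on the signal arrays and for 3 on the value-table arrays, against 47.5% and 39.8% of all genes. The median log2 change over the 8 members was -0.07 and 0.02, beside -0.0010 and 0.0077 over all genes tested. GPX4 was the 1 member that passed in the same direction in both sets. Of the 9560 genes kept in both, 9.79% did so and 5.56% were higher in both. SLC7A11 was the 1 member that passed in opposite directions, where 0.513% did. When same-numbered samples were paired, AIFM2 passed in opposite directions as well. RNA was taken from whole cultures, so fewer cells of a kind and less RNA per cell cannot be told apart.

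**Figure D1:**
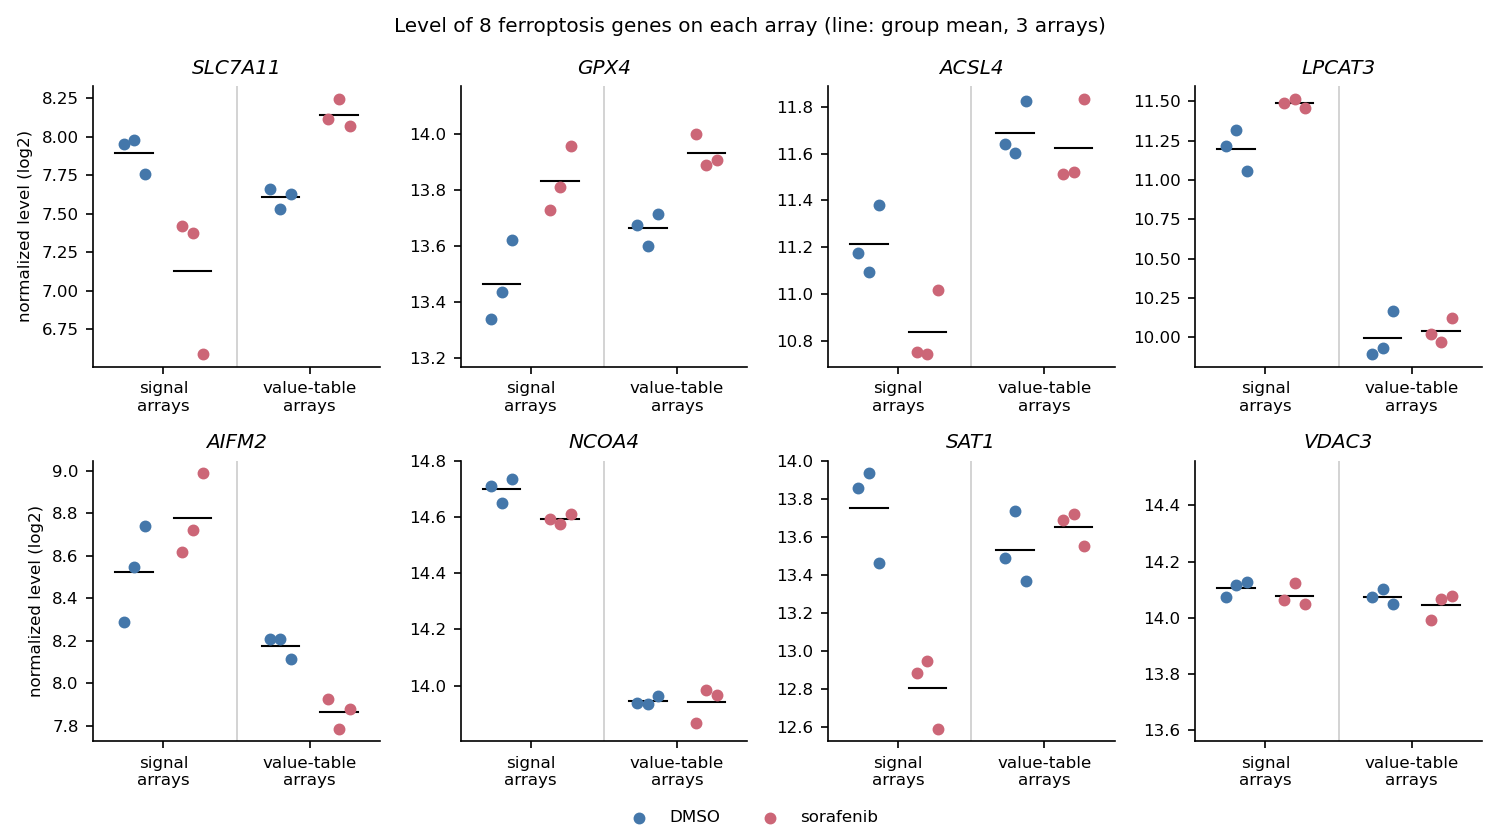
Normalised log2 level of 8 ferroptosis genes on each array, with DMSO in blue and sorafenib in red and a line at each group's mean of 3 arrays; each panel has its own axis, and the sets were normalised separately. SLC7A11 lies lower with sorafenib on the signal arrays and higher on the value-table arrays, GPX4 lies higher in both, and SAT1 lies lower on the signal arrays.

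SLC7A11, the transporter subunit of system xc- that exchanges glutamate for cystine, fell on the signal arrays and rose on the value-table arrays. Its level on the signal arrays was 7.95, 7.98 and 7.76 with DMSO and 7.42, 7.38 and 6.59 with sorafenib. All sorafenib arrays lay below all DMSO arrays, and sorafenib replicate 3 lay farthest below. The mean went from 7.90 ± 0.12 to 7.13 ± 0.47 (SD, n = 3), a fall of 1.70-fold (log2 -0.77, SE 0.21, adjusted p = 0.0245 by limma). The probe was dim. Its signals before normalisation were 346, 403 and 292 with DMSO and 295, 277 and 169 with sorafenib, so the groups overlapped there, and the detection p on sorafenib replicate 3 was 0.0078. The call was lost without DMSO replicate 1 (log2 -0.74, adjusted p = 0.0515) and without DMSO replicate 2 (log2 -0.73, adjusted p = 0.0860). The change shrank to -0.50 on the log2 scale without sorafenib replicate 3, where it still passed with an adjusted p of 0.0331, and to -0.48 without background correction.

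The level of SLC7A11 on the value-table arrays was 7.66, 7.53 and 7.63 with DMSO and 8.12, 8.25 and 8.07 with sorafenib. Here all sorafenib arrays lay above all DMSO arrays. The mean went from 7.61 ± 0.07 to 8.14 ± 0.09 (SD, n = 3), a rise of 1.45-fold (log2 0.54, SE 0.08, adjusted p = 0.00416), and it passed in all 13 alternatives tried. Of these, median scaling changed nothing, since the 6 columns already shared a median. With the filter level raised by 0.5, the probe was kept only through the sorafenib arrays. Its DMSO levels lay little above 7.40, the level that value-table probes had to exceed to be kept. Among the genes kept in both sets, 0.262% were lower on the signal arrays and higher on the value-table arrays. Without background correction, the DMSO mean of SLC7A11 was 8.40 on the signal arrays. That is 0.79 above the value-table mean, though the sets were normalised separately, and no difference between the sets was tested.

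GPX4, the selenium enzyme that reduces lipid hydroperoxides inside membranes, rose in both sets by each of its probes. The brighter probe on the signal arrays gave 13.34, 13.44 and 13.62 with DMSO and 13.73, 13.81 and 13.96 with sorafenib. The groups did not overlap, and the mean rose 1.29-fold, from 13.47 ± 0.14 to 13.83 ± 0.12 (SD, n = 3; log2 0.37, SE 0.08, adjusted p = 0.0109). The other probe gave 12.63, 12.75 and 12.86 against 13.12, 13.05 and 13.25, also without overlap (log2 0.40, SE 0.08, adjusted p = 0.00475). Both probes carry the same transcript accession in the annotation. The same probe on the value-table arrays read 13.68, 13.60 and 13.71 with DMSO and 14.00, 13.89 and 13.91 with sorafenib, again with every sorafenib array on the higher side. The rise was 1.20-fold (log2 0.27, SE 0.06, adjusted p = 0.0145), and 0.28 on the log2 scale by the other probe (adjusted p = 0.0186). The call on the value-table arrays was lost without sorafenib replicate 1 (log2 0.23, adjusted p = 0.0583), and on the signal arrays it held in all 15 alternatives.

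The promoter of GPX4, with that of SAT1, is shown because these were the members whose calls on the signal arrays held in every alternative. Each line is the 250 bases before the gene's start in RefSeq (GRCh38.p14), 5′ to 3′ on the gene's strand, chr19:1103744-1103993 on the plus strand for GPX4 and chrX:23782923-23783172 on the plus strand for SAT1. Of the 10 members, 8 had an entry. SLC7A11 and VDAC3 had none, so neither was searched for any of the elements below. Capitals mark a GC box, the letters GGGCGG on either strand.
GPX4: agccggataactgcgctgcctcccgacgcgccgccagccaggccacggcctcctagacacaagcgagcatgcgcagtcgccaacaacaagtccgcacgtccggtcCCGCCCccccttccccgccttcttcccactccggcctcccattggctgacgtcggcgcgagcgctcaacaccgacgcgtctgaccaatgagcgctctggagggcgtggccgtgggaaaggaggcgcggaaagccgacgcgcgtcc
SAT1: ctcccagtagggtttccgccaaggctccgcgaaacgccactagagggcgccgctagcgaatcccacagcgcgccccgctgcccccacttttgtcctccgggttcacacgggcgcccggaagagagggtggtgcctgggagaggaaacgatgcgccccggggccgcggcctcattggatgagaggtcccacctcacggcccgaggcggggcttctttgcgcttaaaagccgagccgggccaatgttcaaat
The GPX4 window held 1 GC box, on the reverse strand, beginning 145 bases before the start, and the SAT1 window held none. The same 250-base windows of all 35116 promoters held a GC box in 42.6% of cases. The antioxidant response element TGACNNNGC, found in 10.9% of all windows, was searched on both strands as well and matched once among the 8 members, in AIFM2, beginning 22 bases before the start. The ATF-type element TGATGNAA, found in 3.14% of all windows, matched in none of the 8. A GC box also lay in the windows of ACSL4, LPCAT3, AIFM2, NCOA4 and GLS2, and none in that of VDAC2. These matches describe letters in a window and were not tested for binding.

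ACSL4 ligates arachidonic and adrenic acid to coenzyme A and thereby supplies the lipids that are peroxidised. Its brightest probe read 11.17, 11.09 and 11.38 with DMSO and 10.75, 10.74 and 11.02 with sorafenib on the signal arrays. The groups lay apart, with sorafenib lower by 1.30-fold (log2 -0.38, SE 0.10, adjusted p = 0.0211). This call was lost without DMSO replicate 3 (log2 -0.30, adjusted p = 0.0529), sorafenib replicate 1 (-0.33, adjusted p = 0.0706) or sorafenib replicate 2 (-0.33, adjusted p = 0.0840), with median scaling (adjusted p = 0.0642) and without the intensity trend (adjusted p = 0.0575). The same probe read 11.64, 11.60 and 11.83 with DMSO and 11.51, 11.52 and 11.83 with sorafenib on the value-table arrays, and the groups overlapped (log2 -0.07, 95% interval -0.29 to 0.16, adjusted p = 0.701).

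A second ACSL4 probe, annotated to another transcript of the gene, did not pass in either set unless same-numbered samples were paired. It read 9.30, 8.31 and 8.79 with DMSO and 8.64, 7.76 and 8.29 with sorafenib on the signal arrays, and the groups overlapped. Within each numbered pair, sorafenib was lower by 0.66, 0.55 and 0.50 on the log2 scale. The change was -0.57 with an adjusted p of 0.141, and 0.000513 with the replicate number as a block. The change on the value-table arrays was -0.28, with an adjusted p of 0.119 and 0.0107 with the block. The 2 other ACSL4 probes, annotated to that same transcript, were not well above background on any signal array.

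LPCAT3, the acyltransferase that places polyunsaturated acyl chains into membrane phospholipids, rose on the signal arrays. It read 11.21, 11.32 and 11.06 with DMSO and 11.49, 11.52 and 11.46 with sorafenib. The groups did not overlap, and the rise was 1.22-fold (log2 0.29, SE 0.08, adjusted p = 0.0212). The call was lost without DMSO replicate 3 (log2 0.22, adjusted p = 0.0551), sorafenib replicate 1 (0.29, adjusted p = 0.0542) or sorafenib replicate 2 (0.28, adjusted p = 0.0757), with median scaling (adjusted p = 0.321) and without the intensity trend (adjusted p = 0.0575). The value-table arrays read 9.89, 9.93 and 10.17 against 10.02, 9.97 and 10.12, with overlap (log2 0.04, 95% interval -0.17 to 0.25, adjusted p = 0.807). Without background correction, the DMSO mean of this probe was 1.25 log2 units higher on the signal arrays than on the value-table arrays.

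AIFM2, also called FSP1, reduces coenzyme Q10 at membranes and so traps lipid radicals independently of GPX4. It read 8.21, 8.21 and 8.11 with DMSO and 7.93, 7.79 and 7.88 with sorafenib on the value-table arrays. All sorafenib arrays lay lower, by 1.24-fold (log2 -0.31, SE 0.08, adjusted p = 0.0267). This call was lost in 5 of the 6 fits that left out 1 array: without DMSO replicate 1 (log2 -0.30, adjusted p = 0.0773), DMSO replicate 2 (-0.30, adjusted p = 0.0667), sorafenib replicate 1 (-0.35, adjusted p = 0.0577), sorafenib replicate 2 (-0.28, adjusted p = 0.0991) and sorafenib replicate 3 (-0.32, adjusted p = 0.0557). The signal arrays read 8.29, 8.55 and 8.74 against 8.62, 8.72 and 8.99, and the groups overlapped. The change there was 0.25 on the log2 scale (SE 0.14, adjusted p = 0.218). With the replicate number as a block the adjusted p was 0.0380, so that 6 members passed, where 44.0% of all genes did with the block. The value-table fall also passed with the block (adjusted p = 0.00845). AIFM2, like SLC7A11, thus passed in opposite directions in the sets when the block was used.

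NCOA4, the receptor that carries ferritin to the lysosome and so releases its iron, did not pass in either set. It read 14.71, 14.65 and 14.73 with DMSO and 14.59, 14.58 and 14.61 with sorafenib on the signal arrays. The sorafenib arrays all lay lower, by little (log2 -0.11, 95% interval -0.22 to 0.0049, adjusted p = 0.145). The value-table arrays read 13.94, 13.94 and 13.96 against 13.87, 13.99 and 13.97, with overlap (log2 -0.0048, 95% interval -0.13 to 0.12, adjusted p = 0.965).

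SAT1, which acetylates spermidine and spermine and starts polyamine breakdown, had the largest change among the 8 members on the signal arrays. It read 13.86, 13.93 and 13.46 with DMSO and 12.88, 12.95 and 12.59 with sorafenib. The groups lay well apart, and the mean fell 1.92-fold, from 13.75 ± 0.25 to 12.81 ± 0.19 (SD, n = 3; log2 -0.94, SE 0.13, adjusted p = 0.000752). Its value-table levels were 13.49, 13.73 and 13.37 with DMSO and 13.69, 13.72 and 13.55 with sorafenib. There the groups overlapped, and SAT1 did not pass (log2 0.12, 95% interval -0.09 to 0.33, adjusted p = 0.406).

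VDAC2 and VDAC3 are channels of the outer mitochondrial membrane that bind erastin, a compound used to trigger ferroptosis. VDAC3 read 14.07, 14.12 and 14.13 with DMSO and 14.06, 14.12 and 14.05 with sorafenib on the signal arrays, and 14.07, 14.10 and 14.05 against 13.99, 14.07 and 14.08 on the value-table arrays. The groups overlapped in both sets, and it did not pass (log2 -0.03 in each, 95% intervals -0.14 to 0.09 and -0.15 to 0.09, adjusted p = 0.725 and 0.747). The single VDAC2 probe was not well above background on any signal array, with detection p of 0.508 to 0.666, and lay below the kept level in the value table, so these probes give no test of VDAC2.

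**Figure D2:**
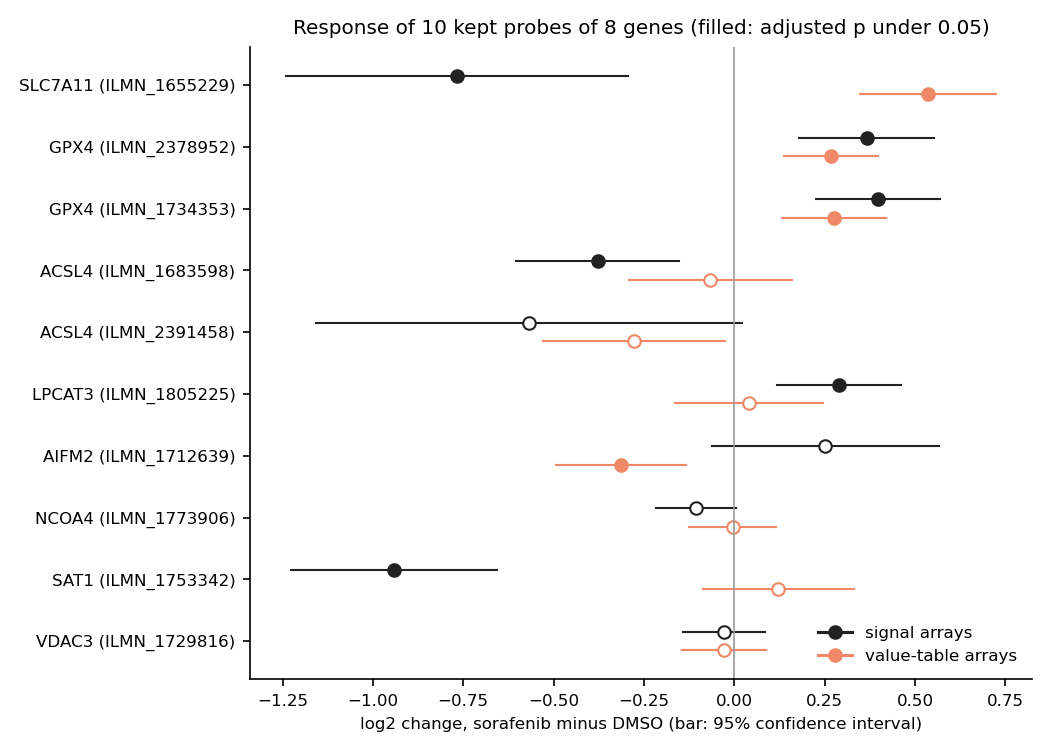
Log2 change with sorafenib against DMSO for the 10 kept probes of 8 genes, with 95% confidence intervals from limma, signal arrays in black and value-table arrays in orange; filled points passed at an adjusted p under 0.05. SLC7A11 is the member with filled points on opposite sides of 0, and all 4 GPX4 points are filled and above 0.

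The other genes of the pathway were taken from 9 lists of 165 genes, members aside. On the signal arrays 127 were kept, of which 32 were higher and 25 lower, or 44.9% against 31.0% of all genes, with a median log2 change of 0.06. On the value-table arrays 133 were kept, of which 20 were higher and 24 lower, or 33.1% against 19.5%, with a median of 0.01; with the replicate number as a block, 32 were higher and 37 lower, where 34.6% of all genes passed. Of 125 kept in both sets, 27 passed in the same direction, 13 higher and 14 lower, and 2 in opposite directions. Among all 9560 genes kept in both sets, 9.79% passed in the same direction, 5.56% were higher in both, and 0.513% passed in opposite directions. The counts per list below stand beside the shares of all genes that passed, 31.0% and 19.5% in the sets. With the block, these shares were 44.0% and 34.6%. Named below are the largest 2 rises and 2 falls per list and set, and besides them SLC3A2, TXNRD1, VDAC1 and SLC39A14, CTH and CDKN1A on the signal arrays, and SLC1A4 and COQ5, which were chosen after their values were seen.

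Around SLC7A11, 5 of 15 kept genes of cystine uptake and glutathione synthesis were higher and 1 lower on the signal arrays (median 0.14), and 5 of 16 were higher and 2 lower on the value-table arrays (median 0.02). SLC1A4, an amino acid carrier counted among the higher on the value-table arrays, lay below the kept level on every DMSO column and has only a bound there, at least 1.36-fold higher. It was kept only through the sorafenib columns, so it had to differ. CTH, which releases cysteine from cystathionine, rose 2.37-fold on the value-table arrays (log2 1.25, SE 0.12, adjusted p = 0.000674) but was not called on the signal arrays (log2 0.13, adjusted p = 0.401). CBS, the step before it, rose by 0.41 and 0.55 on the log2 scale (adjusted p = 0.00206 and 0.00254). SLC3A2, the heavy chain that pairs with SLC7A11, rose in both sets (log2 0.26 and 0.43, adjusted p = 0.00971 and 0.00329). ANPEP, a peptidase of the glutathione salvage route, rose on the signal arrays (log2 0.38, adjusted p = 0.00828). It read 0.28 on the value-table arrays and did not pass (adjusted p = 0.109). GPX3, the plasma glutathione peroxidase, fell by 0.39 and 0.33 (adjusted p = 0.0028 and 0.0199). GPX2, an epithelial one, fell by 0.38 on the value-table arrays (adjusted p = 0.0109). It read -0.07 on the signal arrays and did not pass (adjusted p = 0.451). Median scaling ended the signal-array calls of CBS (adjusted p = 0.0995), SLC3A2 (0.281) and ANPEP (0.148), the mean over all of a gene's probes ended that of SLC3A2 on the value-table arrays (log2 0.24, adjusted p = 0.195), and the value-table call of GPX3 was lost without DMSO replicate 2 (-0.28, adjusted p = 0.0586) or sorafenib replicate 1 (-0.28, adjusted p = 0.0757).

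Around GPX4, 1 of 14 genes of selenoprotein and thioredoxin support was higher and 3 lower on the signal arrays (median 0.08), and 0 were higher and 3 lower on the value-table arrays (median 0.04). With the replicate number as a block these counts were 3 and 4, and 4 and 3. LRP8, a receptor that takes up selenoprotein P, fell by 1.00 and 0.41 on the log2 scale (adjusted p = 8.56e-05 and 0.0114). SRXN1, which repairs peroxiredoxins, fell by 0.52 and 0.42 (adjusted p = 0.000393 and 0.0194), and TXNRD1, the cytosolic thioredoxin reductase, by 0.44 and 0.26 (adjusted p = 0.000821 and 0.0130). SEPHS2, which makes the selenium donor for selenocysteine, did not pass on the value-table arrays (log2 0.17, adjusted p = 0.246). It rose on the signal arrays (log2 0.31, adjusted p = 0.0271). That call was lost without DMSO replicate 2 (0.23, adjusted p = 0.106), sorafenib replicate 1 (0.31, adjusted p = 0.0659) or sorafenib replicate 3 (0.26, adjusted p = 0.0867), and with median scaling (adjusted p = 0.185) or no intensity trend (adjusted p = 0.0746). The value-table calls were lost for SRXN1 without DMSO replicate 1 (-0.40, adjusted p = 0.0665) or DMSO replicate 3 (-0.40, adjusted p = 0.0511), and for TXNRD1 without sorafenib replicate 2 (-0.25, adjusted p = 0.0504).

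Beside ACSL4 and LPCAT3, 8 of 16 genes of lipid remodelling were higher and 1 lower on the signal arrays (median 0.21), and 3 of 17 were higher and 1 lower on the value-table arrays (median -0.03; 4 and 5 with the block). PEBP1, which binds lipoxygenases and is also known as a RAF inhibitor protein, rose by 0.61 and 0.27 on the log2 scale (adjusted p = 0.000718 and 0.0269). FADS2, a desaturase of polyunsaturated fatty acids, was not well above background on any DMSO array of the signal set and was at least 1.46-fold higher with sorafenib, the bright mean over each array's detection level (adjusted p = 0.0140). It was kept only through the sorafenib arrays, so it had to differ, and it is 1 of the 8 counted as higher; on the value-table arrays it read -0.16 and did not pass (adjusted p = 0.568). SCD, which makes monounsaturated fatty acids, rose by 0.39 and 0.30 (adjusted p = 0.00768 and 0.0257). AKR1C3, a reductase of aldehydes and ketones, rose by 0.38 on the signal arrays and fell by 0.45 on the value-table arrays (adjusted p = 0.000604 and 0.0104). Its DMSO mean was 14.88 on the signal arrays but 8.14 on the value-table arrays. With sorafenib its value-table mean was 7.69, little above the kept level of 7.40. MBOAT1, an acyltransferase, rose by 0.29 on the value-table arrays (adjusted p = 0.0326) and read -0.23 on the signal arrays, where it did not pass (adjusted p = 0.485). AGPS, of ether lipid synthesis, fell by 0.33 on the signal arrays (adjusted p = 0.0248). It read -0.17 on the value-table arrays and did not pass (adjusted p = 0.112).

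Several of these lipid calls did not hold when 1 array was left out. Leaving out any 1 of the 6 arrays ended the value-table call of MBOAT1 (log2 0.27 to 0.32, adjusted p = 0.0510 to 0.105). That of SCD was lost in 4 of 6 fits, all but those without DMSO replicate 3 and sorafenib replicate 2 (0.23 to 0.29, adjusted p = 0.0680 to 0.0831), and that of PEBP1 in 4, all but those without DMSO replicate 1 and sorafenib replicate 2 (0.24 to 0.26, adjusted p = 0.0690 to 0.0972). AGPS on the signal arrays was lost in 4 of the 6 fits, all but those without DMSO replicate 1 and sorafenib replicate 2 (-0.36 to -0.23, adjusted p = 0.0534 to 0.0759) and with median scaling (adjusted p = 0.118), and FADS2 without replicate 2 of either group (adjusted p = 0.0524 and 0.0555).

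Beside AIFM2, 5 of 19 genes of the quinone, pterin and sterol routes were higher and 6 lower on the signal arrays (median 0.02), and 5 were higher and 2 lower on the value-table arrays (median -0.0021; 7 and 6 with the block). LSS, the cyclase that makes lanosterol, rose 2.19-fold and 1.65-fold (log2 1.13 and 0.72, adjusted p = 0.000194 and 0.00238). DHCR7, the last enzyme of cholesterol synthesis, rose by 0.83 and 0.43 (adjusted p = 0.000422 and 0.0271), and SC5D, the enzyme before it, by 0.47 and 0.57 (adjusted p = 0.00617 and 0.0152). Genes of coenzyme Q synthesis passed in both directions. COQ5, a methyltransferase of the route, rose by 0.27 and 0.48 (adjusted p = 0.0118 and 0.00275). COQ3 fell by 0.46 and COQ7 by 0.36 on the signal arrays (adjusted p = 0.0103 and 0.0279). On the value-table arrays they read -0.19 and -0.08 and did not pass (adjusted p = 0.152 and 0.556). PDSS1 fell by 0.36 and 0.29 in the sets (adjusted p = 0.0133 and 0.0149). SPR, of pterin synthesis, fell by 0.33 on the value-table arrays (adjusted p = 0.0168). It read -0.26 on the signal arrays and did not pass (adjusted p = 0.133). DHCR7 on the value-table arrays was lost in 4 of the 6 fits that left out 1 array, all but those without DMSO replicate 3 and sorafenib replicate 2 (0.32 to 0.47, adjusted p = 0.0587 to 0.0807), and SC5D there without DMSO replicate 1 (0.47, adjusted p = 0.0525). COQ7 was lost in 5 of 6, all but that without sorafenib replicate 1 (-0.38 to -0.30, adjusted p = 0.0512 to 0.0829), SPR without DMSO replicate 1 or sorafenib replicate 2 (-0.31 and -0.30, adjusted p = 0.0557 and 0.0660), and PDSS1 without replicate 2 of either group on the signal arrays (adjusted p = 0.0603 and 0.0542) or replicate 1 of either group on the value-table arrays (adjusted p = 0.0511 and 0.0583).

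Beside NCOA4, 5 of 15 iron genes were higher and 1 lower on the signal arrays (median 0.13), and 2 of 17 were higher and 3 lower on the value-table arrays (median 0.03; 5 and 4 with the block). TF, the plasma iron carrier, rose by 0.61 on the signal arrays and HMOX1, which frees iron from heme, by 0.46 (adjusted p = 0.000449 and 0.00101), while STEAP3, an endosomal ferric reductase, fell by 0.62 (adjusted p = 0.00127). On the value-table arrays these read 0.07, -0.12 and -0.25 and did not pass. There SLC40A1, the iron exporter ferroportin, rose by 0.47 (adjusted p = 0.00235). CP, a ferroxidase, fell there by 0.59 and TFRC, the transferrin receptor, by 0.28 (adjusted p = 0.0164 and 0.0166). On the signal arrays SLC40A1 and TFRC read 0.13 and -0.07 and did not pass (adjusted p = 0.367 and 0.315). CP was not kept on the signal arrays. ISCU, the scaffold for iron-sulphur clusters, rose by 0.32 and 0.28 (adjusted p = 0.00301 and 0.0211). SLC39A14, an importer of zinc and iron, rose by 0.33 on the signal arrays and fell by 0.25 on the value-table arrays (adjusted p = 0.0127 and 0.0490). Its calls were lost without DMSO replicate 2 on the signal arrays (0.30, adjusted p = 0.0572) and, on the value-table arrays, without any 1 array but sorafenib replicate 2 (-0.27 to -0.20, adjusted p = 0.0824 to 0.154). CP on the value-table arrays was lost without sorafenib replicate 2 (-0.59, adjusted p = 0.0524), TFRC without sorafenib replicate 1, sorafenib replicate 2 or DMSO replicate 3 (-0.26 to -0.24, adjusted p = 0.0555 to 0.0660), and ISCU without any 1 array but DMSO replicate 2 and sorafenib replicate 3 (0.24 to 0.29, adjusted p = 0.0542 to 0.0798).

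Beside SAT1, 2 of 10 polyamine genes were higher and 4 lower on the signal arrays (median -0.19), and 2 of 11 were higher and 3 lower on the value-table arrays (median -0.14; 2 and 6 with the block). The genes that fell included synthetic enzymes: SRM, spermidine synthase, fell by 0.79 and 0.44 on the log2 scale (adjusted p = 4.34e-05 and 0.00470), and ODC1, ornithine decarboxylase, by 0.40 and 0.39 (adjusted p = 0.00240 and 0.00335). SMOX, spermine oxidase, fell by 0.48 on the signal arrays (adjusted p = 0.0227). It read -0.21 on the value-table arrays and did not pass (adjusted p = 0.0666). PAOX, the oxidase that acts on the products of SAT1, rose by 0.88 and 0.29 (adjusted p = 0.00136 and 0.0494), and SAT2, named for its likeness to SAT1, by 0.56 and 0.84 (adjusted p = 0.00154 and 0.000436). The value-table call of PAOX was lost without any 1 of the 6 arrays (0.22 to 0.32, adjusted p = 0.0841 to 0.139), and that of SMOX on the signal arrays without any 1 array but DMSO replicate 3 and sorafenib replicate 2 (-0.47 to -0.38, adjusted p = 0.0607 to 0.0892).

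With GLS2 unmeasured, 2 of 9 other genes of glutaminolysis were higher and 3 lower on the signal arrays (median -0.04), and 0 were higher and 1 lower on the value-table arrays (median 0.12; 1 and 1 with the block). GLUD1, glutamate dehydrogenase, rose by 0.52 and SLC7A5, a carrier of large neutral amino acids, by 0.47 on the signal arrays (adjusted p = 0.00167 and 0.000645). SLC1A5, the glutamine importer, fell by 0.69 there (adjusted p = 0.00466) and read 0.14 on the value-table arrays, where it did not pass (adjusted p = 0.209). GOT1, the cytosolic aspartate aminotransferase, fell by 0.58 and 0.24 (adjusted p = 0.000768 and 0.0265), and its value-table call was lost without any 1 array but DMSO replicate 3 and sorafenib replicate 2 (-0.23 to -0.22, adjusted p = 0.0643 to 0.0925).

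Beside VDAC2 and VDAC3, 0 of 11 channels and partners were higher and 3 lower on the signal arrays (median 0.01), and 1 was higher and 4 lower on the value-table arrays (median -0.04). The 3 that fell on the signal arrays also fell on the value-table arrays. HK2, a hexokinase that docks on these channels, fell by 1.74 and 0.35 (adjusted p = 4.91e-06 and 0.0145), and HK1, another, by 1.07 and 0.70 (adjusted p = 0.0224 and 0.00341). TOMM40, the import pore of the same membrane, fell by 0.63 and 0.53 (adjusted p = 5.77e-05 and 0.00309), whereas TOMM20, an import receptor, rose by 0.30 on the value-table arrays (adjusted p = 0.0126) and read -0.15 on the signal arrays, where it did not pass (adjusted p = 0.0952). VDAC1 read 0.10 and -0.05 and did not pass (adjusted p = 0.356 and 0.547). HK1 was lost on the signal arrays without sorafenib replicate 3 or either of DMSO replicates 1 and 2 (-0.91 to -0.84, adjusted p = 0.0544 to 0.0929), and HK2 on the value-table arrays without sorafenib replicate 2 (-0.33, adjusted p = 0.0557).

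Among regulators of ferroptosis, 4 of 18 were higher and 3 lower on the signal arrays (median 0.04), and 2 of 19 were higher and 5 lower on the value-table arrays (median -0.02). ATF4 and ATF3, stress-induced transcription factors, rose in both sets, by 0.26 and 0.58 for ATF4 (adjusted p = 0.0240 and 0.00182) and 0.46 and 0.51 for ATF3 (adjusted p = 0.0341 and 0.00998). HSPB1, a small heat shock protein, rose by 0.56 on the signal arrays (adjusted p = 0.00264) and read -0.09 on the value-table arrays, where it did not pass (adjusted p = 0.355). HSPA5, the chaperone BiP, fell by 0.78 and 0.37 (adjusted p = 0.000241 and 0.0125), and EGLN1, an oxygen-sensing prolyl hydroxylase, by 0.36 and 0.51 (adjusted p = 0.0168 and 0.00254). CDKN1A, a cell cycle inhibitor, fell by 1.15 and MYCN by 0.73 on the value-table arrays (adjusted p = 0.000525 and 0.00125). On the signal arrays CDKN1A read 0.20 (adjusted p = 0.311, and 0.0119 with the block), and MYCN was not kept. ATF3 and ATF4 on the signal arrays were each lost without any 1 array but DMSO replicate 1 and sorafenib replicate 3 (0.34 to 0.51 and adjusted p = 0.0602 to 0.117 for ATF3, 0.20 to 0.27 and 0.0596 to 0.0832 for ATF4). EGLN1 was lost there without replicate 2 of either group (-0.34 and -0.31, adjusted p = 0.0696 and 0.0705), and HSPA5 on the value-table arrays without sorafenib replicate 2 (-0.33, adjusted p = 0.0523).

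Other settings ended some of these calls as well. Median scaling did so on the signal arrays for ATF3, ATF4, COQ7, EGLN1, ISCU, PDSS1 and SLC39A14 (adjusted p = 0.0755 to 0.269), leaving out the intensity trend for AGPS, ATF4, HK1 and SMOX (0.0589 to 0.0830), and testing all probes for ATF3 and COQ7 (0.0626 and 0.0630). On the value-table arrays, testing all probes ended the calls of GOT1, MBOAT1, PAOX and SLC39A14 (adjusted p = 0.0681 to 0.107), and the fits without the trend or with array weights those of PAOX and SLC39A14 (0.0501 to 0.0713). Taking the mean over a gene's probes ended those of ATF4 on the signal arrays (log2 0.18, adjusted p = 0.127) and of ISCU and PAOX on the value-table arrays (0.24 and 0.13, adjusted p = 0.0556 and 0.245), and on the signal arrays it moved HK2 to -0.98 and SLC3A2 to 0.52, both still called. Without background correction PAOX read 0.58 on the signal arrays, still called.

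**Figure D3:**
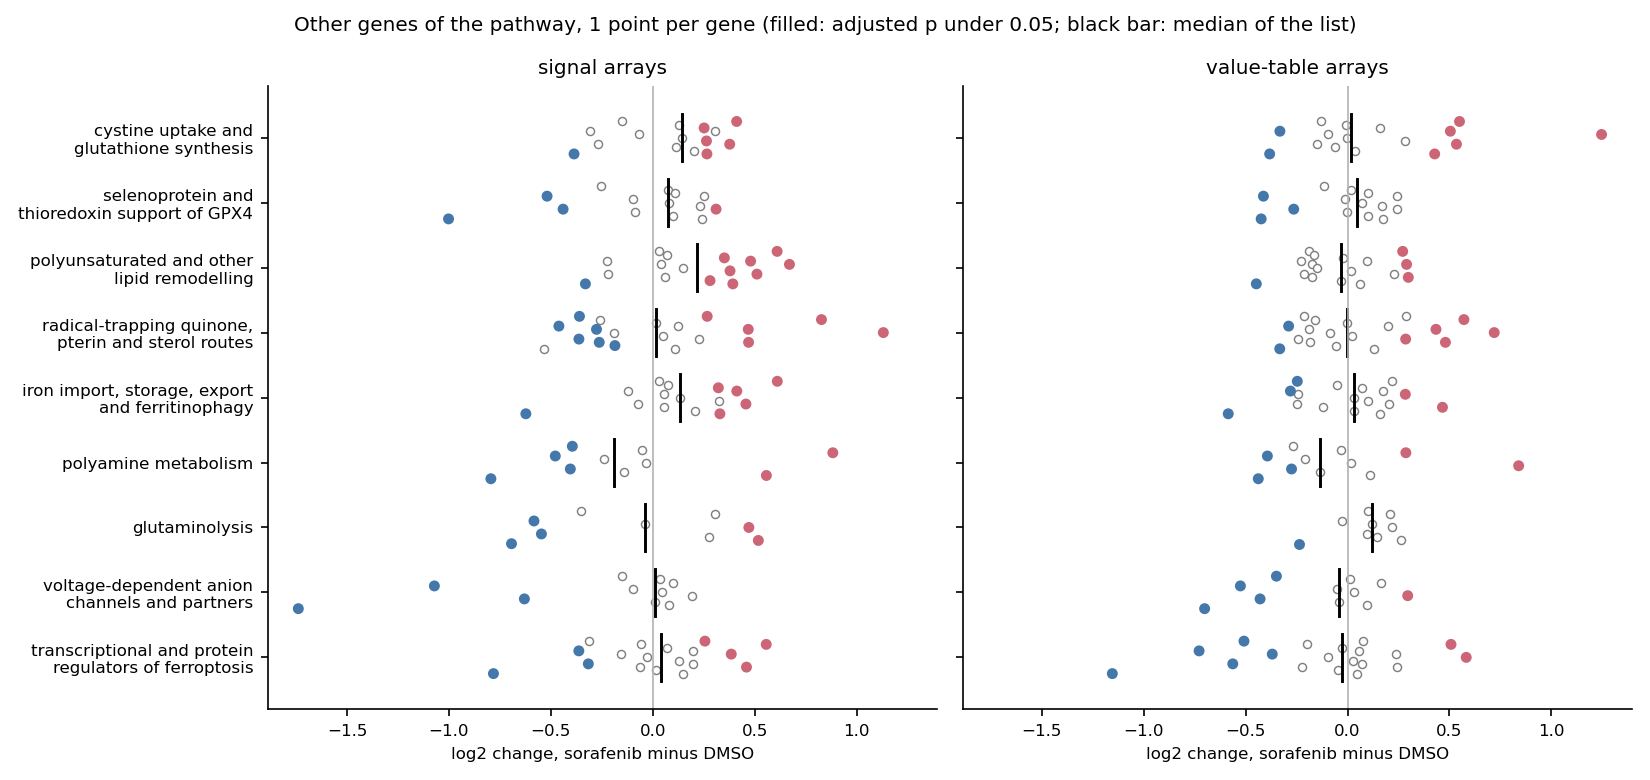
Log2 change with sorafenib against DMSO of the other pathway genes in 9 lists, 1 point per kept gene, with the signal arrays on the left and the value-table arrays on the right; filled points passed at an adjusted p under 0.05 and black bars mark list medians. HK2 (-1.74) is the lowest point on the signal arrays and CTH (1.25) the highest on the value-table arrays.

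The genes whose levels followed those of SLC7A11 and GPX4 most closely were sought over the 12 columns of both sets, each set centred on its own mean, among 9544 genes kept in both. For SLC7A11 these were BAMBI, NUAK2 and DCBLD2 (Pearson r = 0.941, 0.936 and 0.933). NUAK2 fell by 0.88 on the signal arrays and rose by 0.31 on the value-table arrays (adjusted p = 0.00289 and 0.0435), DCBLD2 fell by 0.37 and rose by 0.23 (adjusted p = 0.0184 and 0.0449), and BAMBI read -0.24 and 0.19 (adjusted p = 0.121, or 0.00582 with the block, and 0.0399). For GPX4 they were SLC39A5, HPN and IFI35 (r = 0.985, 0.979 and 0.973), which rose in both sets, by 0.93 and 0.61, 0.67 and 0.65, and 0.58 and 0.37 in that order. Arrays of a group share their treatment, so these values describe likeness and carry no p. The value-table calls were lost without any 1 array for BAMBI (0.16 to 0.22, adjusted p = 0.0704 to 0.136) and DCBLD2 (0.20 to 0.27, adjusted p = 0.0503 to 0.130), and for NUAK2 without any 1 array but DMSO replicate 1 (0.26 to 0.33, adjusted p = 0.0899 to 0.130). DCBLD2 was also lost on the signal arrays without DMSO replicate 2 (-0.31, adjusted p = 0.0799) or sorafenib replicate 3 (-0.28, adjusted p = 0.0566). Leaving out the intensity trend ended that call too (adjusted p = 0.0609). On the value-table arrays, testing all probes ended the calls of BAMBI, DCBLD2 and NUAK2 (adjusted p = 0.0846, 0.127 and 0.0749). The fit without the trend ended those of BAMBI and DCBLD2 there (0.0860 and 0.0631), and array weights that of DCBLD2 (0.0502). With the mean over a gene's probes, NUAK2 and DCBLD2 read 0.20 and 0.15 on the value-table arrays and did not pass (adjusted p = 0.160 and 0.184).

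**Figure D4:**
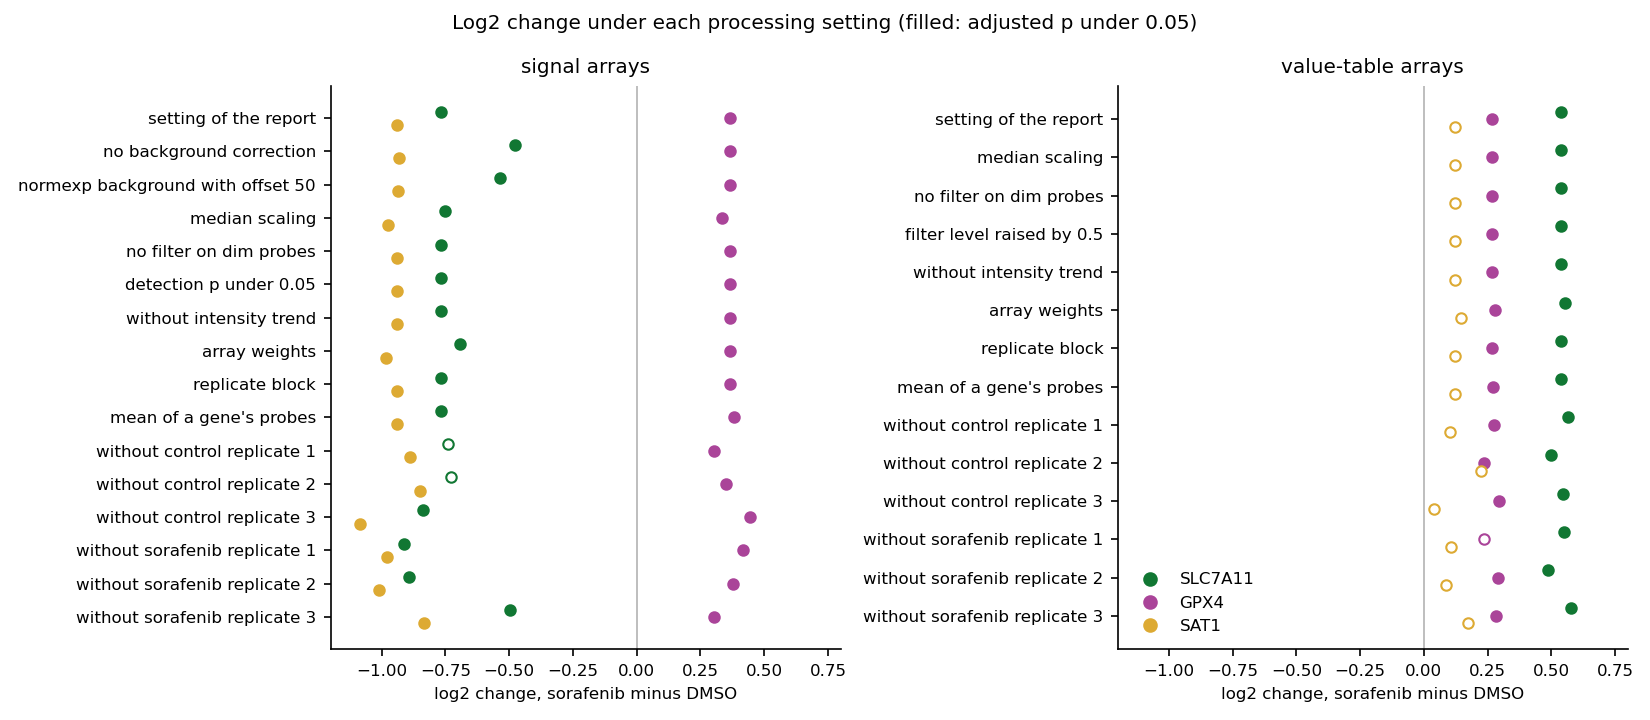
Log2 change with sorafenib against DMSO of SLC7A11, GPX4 and SAT1 under each processing setting, with control standing for DMSO, the signal arrays on the left and the value-table arrays on the right; filled points passed at an adjusted p under 0.05. SLC7A11 stays below 0 on the signal arrays and above 0 on the value-table arrays in every setting drawn, and is open on the signal arrays without DMSO replicate 1 or 2.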

How the data were processed

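Biotin-labelled cRNA was hybridised to an Illumina expression beadchip of 47323 probes, per the labels. The authors deposited probe signals as intensity, not normalised between arrays, with a detection p-value beside each, per the file headers. The deposited value table was taken from its values to be on a log2 scale, since its 6 columns shared a range of 6.08 to 15.85 and a median of 7.10. How it was made, whether a background was subtracted, and which software was used are not given in the sources.

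Signals were background-corrected and quantile-normalised with limma's neqc (offset 16, background from the detection p-values), and 17115 probes detected at p under 0.01 on 3 or more of the 6 arrays were kept. In the value table, probes above 7.40, the detection level in uncorrected signals, on at least 3 columns were kept (17122). That level was borrowed from the signal arrays, which are not the same arrays, so it is only a stand-in for detection there. Groups were compared within each set with limma 3.58.1 in R 4.3.3 (lmFit, eBayes with intensity trend, group only, two-sided) with Benjamini-Hochberg adjustment across every kept probe. The kept probe with the highest mean stood for its gene. Of all probes, 30113 had 1 gene symbol, 8 several and 17202 none, and 30074 were matched to RefSeq by Entrez identifier. A probe undetected in a whole group has only a bound there. The fit was tested on simulated data.

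Replicate numbers in the sample titles were shared by the groups. Deviations of same-numbered samples from their group means correlated at 0.321 to 0.384 on the signal arrays and 0.317 to 0.666 on the value-table arrays. For different numbers these values were -0.353 to 0.033 and -0.518 to 0.294. Deviations from a group mean cancel within the group, so these values are tied to those of same-numbered samples and are no independent baseline. The numbers may thus pair the samples, but the protocols state no pairing. Calls are therefore from the fit on group only unless the block is named, and a fit with the number as a block was an alternative. Other alternatives were the background correction, the scaling, the filter on dim probes, the trend, array weights, the mean over a gene's probes and leaving out each array. The named genes were all members and, per list and set, the 2 largest rises and 2 largest falls that passed. To these came 3 look-alike genes each for SLC7A11 and GPX4. The further genes listed in the results were chosen after their values were seen. Members and lists were chosen with earlier results of these data known.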

Additional observations from a re-analysis of the deposited data

Results flagged for a closer look

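SLC7A11 was picked out because its arrays separated in opposite directions in the sets: all sorafenib arrays lay below all DMSO arrays on the signal arrays (log2 change -0.77) and above them on the value-table arrays (0.54). The same was seen for the look-alike genes NUAK2 (-0.88 and 0.31) and DCBLD2 (-0.37 and 0.23), which were chosen for their likeness to SLC7A11. AKR1C3 (0.38 and -0.45) and SLC39A14 (0.33 and -0.25) separated the other way, higher on the signal arrays and lower on the value-table arrays. AKR1C3 was bright on the signal arrays (DMSO mean 14.88). On the value-table arrays it fell from 8.14 to 7.69, near the kept level of 7.40. The difference between the sets was not tested for any of these genes.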

How the results depend on the processing

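On the signal arrays, median scaling lowered the probes that passed from 4588 to 2627 and the members from 5 to 3, and leaving out the intensity trend also left 3 members. Leaving out 1 array gave 2951 to 4343 probes and 3 to 5 members on the signal arrays, and 1560 to 2494 probes, against 3038 with all arrays, and 1 to 3 members on the value-table arrays. With the replicate number as a block, which pairs same-numbered samples, 6747 probes and 6 members passed on the signal arrays and 5456 probes and 3 members on the value-table arrays; AIFM2 on the signal arrays was the 1 member whose call the block changed among the probes that stood for a gene. In the value table, changes near 0 turned sign without 1 array and passed in none of these fits: LPCAT3 without DMSO replicate 1 (-0.011) or sorafenib replicate 3 (-0.0021), over a range of -0.011 to 0.12, ACSL4 without DMSO replicate 3 (0.0014), over -0.17 to 0.0014, and NCOA4 without DMSO replicate 3 (0.0033) or sorafenib replicate 1 (0.031), over -0.027 to 0.031. Of 89 calls of other named list genes and look-alike genes, counted per set, 51 kept their direction and call in every alternative. Another 38 lost the call in at least 1, and 0 changed direction. COQ5, SLC1A4, LYZ and PDGFRB were not put through the alternatives. The beadchip as a block was not run, since the headers name no chip. With 3 arrays per group, a small change such as that of ACSL4 or LPCAT3 passed or not according to the arrays used. The cause was not tested for any of these shifts. SLC7A11 lay near the background on the signal arrays, and its change was -0.48 without background correction.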
